A study of Mus musculus with 18 samples.

Results

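The comparison described here sets cerebral cortex libraries labelled Mcph1KO against wild-type (WT) libraries at E17.5, a late embryonic stage. Its members were taken from the labels alone, and they are 4 of the 18 RNA sequencing libraries of a study of a microcephaly mouse model: WT replicates 1 and 2 and Mcph1KO replicates 1 and 2. All 4 came from the cortex of male mice of the C57BL/6J strain with no treatment named, and the Mcph1KO pair differs from the WT pair by the genotype label only. The knockout allele, and whether each library stands for 1 embryo, a pool or a litter, are not given in the sources used here. The p-values therefore measure only the spread between the libraries fitted, those of the later stages named next included. A further 12 cortex libraries, 2 of each genotype label at each of the 3 later stages (P4, A6w and A18w), enter as the measure of spread and for the comparison across stages.

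Mcph1 encodes microcephalin, a nuclear protein that restrains condensin II, and with it early chromosome condensation, and that takes part in the DNA damage response. Loss of microcephalin causes primary microcephaly, in which the pool of dividing radial glia in the embryonic cortex makes too few neurons. In the mouse cortex at this stage most deep-layer neurons have been born, upper-layer neurons are settling above them, and the remaining radial glia are turning to glial production.

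The 4 libraries held 23654447 to 32041849 counts each, with 23141 to 23733 genes detected. Libraries with the same replicate number lay closer to each other than libraries with the same genotype label. A chi-square of the counts over genes, per degree of freedom, was 7.69 between WT 1 and Mcph1KO 1 and 19.8 between WT 2 and Mcph1KO 2, against 38.9 between the WT libraries and 58.2 between the Mcph1KO libraries. None of the 6 pairs of libraries agreed within sampling noise. For this reason the genotype difference was fitted with the replicate number as a block at each stage. The labels do not say what the number stands for.

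Mcph1 itself (ENSMUSG00000039842.15, GRCm38 chromosome 8, 18595131 to 18803189) was counted 425 and 285 times in WT 1 and 2 and 414 and 363 times in Mcph1KO 1 and 2. As CPM, counts scaled to library size by the fit's TMM factors, these were 12.5 and 10.1 in WT and 12.2 and 13.2 in the libraries labelled Mcph1KO. Mcph1KO 1 lay inside the WT range and Mcph1KO 2 above it, so no loss of the transcript was seen. The fitted difference for Mcph1 was 0.18 ± 0.19 on the log2 scale (SE, edgeR quasi-likelihood test, adjusted p = 1), and it was -0.03 in the first pair and 0.39 in the second. An exact permutation test of 2 libraries against 2 cannot give a two-sided p below 0.333. Gene totals do not separate exons, so a deletion that leaves most of the transcript in place cannot be told apart from an unaltered gene, and the names of the libraries are used below as labels.

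Few genes passed the test at E17.5. Of 19199 genes tested, 7 (0.0365%) passed an adjusted p of 0.05, all of them higher in the libraries labelled Mcph1KO, and 5 of the 7 (71.4%) are pseudogenes, copies of other genes that make up 2.88% of the genes tested. A further view counts genes without adjustment: 534 genes (2.78%) had an unadjusted p under 0.05, 266 of them (1.39%) higher and 268 (1.4%) lower. Without the replicate block the same test called 0 genes, with a smallest adjusted p of 0.75 and 303 genes (1.58%) at an unadjusted p under 0.05. DESeq2 with the block called 16 genes, 13 higher and 3 lower, and 5 of the 7 were among them. On simulated counts the edgeR fit with the block made more false calls than the threshold allows for. The adjusted p-values given here are therefore not a strict limit on false calls.

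The 2 same-numbered pairs share no library and so give 2 separate readings of the genotype difference. Across all genes tested, 53.6% differed in the same direction in both pairs, with 5025 genes (26.2%) higher and 5273 (27.5%) lower in both. Pearson's correlation across genes between the 2 sets of differences was 0.145, and 0.281 over the 12017 genes of at least 5 CPM, where genes are not independent replicates. Of those 12017 genes, 73 (0.607%) differed more than 2-fold in the fit.

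**Figure D1:**
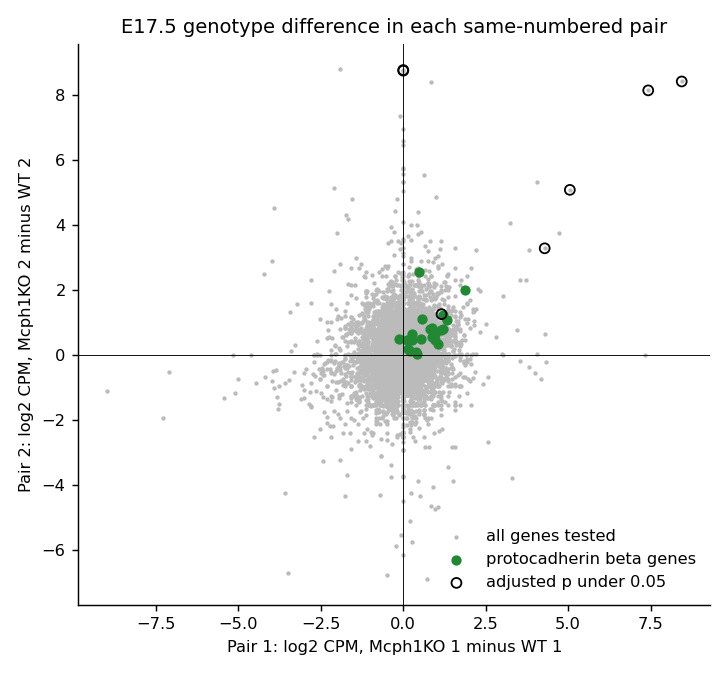
Each point is a gene, with its log2 CPM difference (Mcph1KO minus WT) in the first same-numbered pair on the x axis and in the second on the y axis. Protocadherin beta genes are green and the 7 genes with an adjusted p under 0.05 are circled; the cloud of all genes has little slope (Pearson 0.145), while 21 of the 22 green points lie above 0 on both axes.

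The largest differences were in pseudogenes that went from no or few counts to clear counts. Gm9825, a processed pseudogene on chromosome 6, had 0 CPM in both WT libraries and 25.7 and 25.4 CPM in Mcph1KO 1 and 2. Atp6v0c-ps2, a processed pseudogene copy of the proton pump subunit Atp6v0c and also on chromosome 6, had 0 in both WT libraries and 12.7 and 21.0 CPM in Mcph1KO 1 and 2. Rps2-ps10, a transcribed pseudogene copy of the ribosomal protein gene Rps2 on chromosome 18, had 4.16 and 7.71 CPM in WT 1 and 2 and 82.7 and 75.8 CPM in Mcph1KO 1 and 2. In each of these 3 genes both Mcph1KO libraries stood above both WT libraries. Against a floor of 3 counts over the WT group, Gm9825 was at least 533-fold and Atp6v0c-ps2 at least 341-fold higher (edgeR adjusted p = 0.000432 and 0.00101). These folds take the estimated counts of 0 in WT as given, and do not cover errors in assigning reads to a copy. The fitted log2 difference of Rps2-ps10 was 3.79 ± 0.29 (SE, edgeR adjusted p = 0.0011).

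The same 3 pseudogenes changed state between other libraries that share a genotype label. At P4 the 4 libraries of both labels held 0 to 0.0363 CPM of Gm9825, 0 of Atp6v0c-ps2 and 3.96 to 11.02 of Rps2-ps10. At A6w the split followed the replicate number: Gm9825 stood at 0.0406 (WT) and 0.105 (Mcph1KO) in number 1 and at 12.4 and 12.6 in number 2, Atp6v0c-ps2 at 0 in both number 1 libraries and at 49.9 and 55.3 in number 2, and Rps2-ps10 at 5.03 and 6.23 in number 1 and 48.6 and 47.1 in number 2. At A18w all 4 libraries were high, with at least 11.6 CPM of Gm9825, 46.4 of Atp6v0c-ps2 and 46.0 of Rps2-ps10. This division of the 16 cortex libraries into 8 high and 8 low, read off these genes after their values were seen, held for 7 of the 19199 genes tested, and 3 of the 7 are the called pseudogenes. What sets the 8 libraries apart was not tested.

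Of the genes these copies derive from, none passed the test. Atp6v0c had 273.8 and 340.8 CPM in WT and 259.6 and 328.4 in the libraries labelled Mcph1KO, a log2 difference of -0.06 ± 0.15. Rps2 had 726 and 635 CPM against 643 and 464, a difference of -0.31 ± 0.21. A processed pseudogene differs from its parent at few bases, so reads of the parent can be assigned to the copy, and the copy's value is uncertain to that extent.

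The other 4 called genes were weaker cases. Morf4l1-ps1, a copy of the chromatin gene Morf4l1, and Gm10052 were at 0 in both WT libraries and in Mcph1KO 1, and at 32.0 and 32.5 CPM in Mcph1KO 2, so each call rests on 1 library. Gm10052 was also seen at P4 in WT 2 at 59.5 CPM and at A6w in Mcph1KO 2 at 4.48 CPM, and Morf4l1-ps1 in all 4 libraries at P4, at 5.16 to 15.4 CPM. Gm49378, an annotated coding gene on chromosome 14, had 0 in both WT libraries and 2.39 and 2.44 CPM in Mcph1KO 1 and 2, at least 50.2-fold higher (edgeR adjusted p = 0.032). At P4 both labels carried Gm49378 at similar low levels, 2.30 and 0.79 CPM in WT and 2.35 and 1.71 in the libraries labelled Mcph1KO. At A18w Gm49378 had 0.141 and 0.22 CPM in WT and 0.517 and 2.31 in the libraries labelled Mcph1KO (log2 difference 2.79 ± 0.64, edgeR adjusted p = 1). Neither Morf4l1-ps1 nor Gm10052 was called by DESeq2, nor without the libraries numbered 2.

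Switches of this kind were seen in both directions and between numbers as well as between genotype labels. 6 genes were at 0 in both WT libraries with at least 10 counts in both Mcph1KO libraries, and 2 genes showed the reverse. Between replicate numbers, 15 genes were at 0 in both libraries numbered 1 with at least 10 counts in both numbered 2, and 9 genes showed the reverse.

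**Figure D2:**
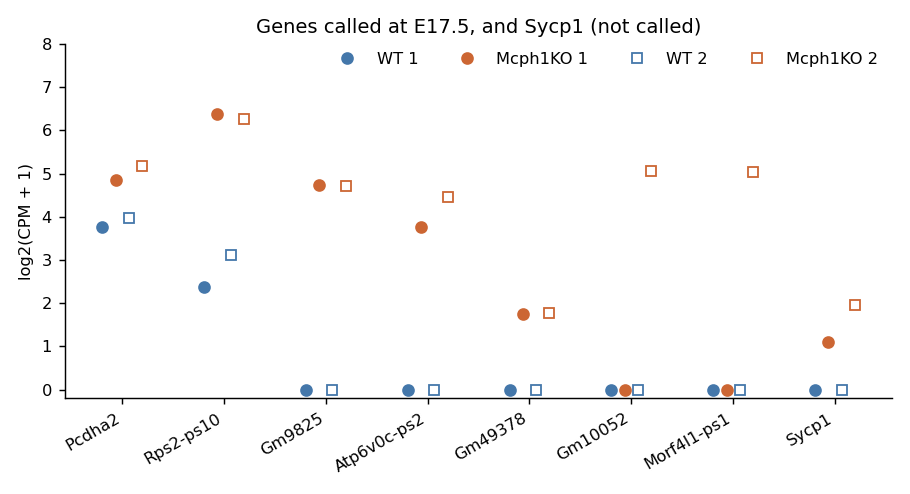
Log2(CPM + 1) of the 7 called genes and of Sycp1 in each E17.5 library; circles are libraries numbered 1, squares those numbered 2, blue WT and orange Mcph1KO. Both Mcph1KO libraries lie above both WT libraries in Pcdha2, Rps2-ps10, Gm9825, Atp6v0c-ps2, Gm49378 and Sycp1, while Gm10052 and Morf4l1-ps1 are above 0 in Mcph1KO 2 alone.

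Pcdha2 was the 1 called gene that is a known coding gene with a level well above 0 in every library. It belongs to the clustered protocadherins, cell-surface adhesion proteins that give each neuron a surface identity; neurons choose their isoforms by the promoter they switch on, and on mouse chromosome 18 the genes form an alpha, a beta and a gamma cluster in that order. Pcdha2 (ENSMUSG00000104148.5) had 12.5 and 14.8 CPM in WT 1 and 2 and 28.1 and 35.4 CPM in Mcph1KO 1 and 2. The groups did not overlap, and the log2 difference was 1.21 ± 0.15 (SE, edgeR adjusted p = 0.0489), with 1.16 in the first pair and 1.26 in the second. Groups of 2 libraries that do not overlap have a two-sided exact permutation p of 0.333, here and wherever overlap is named below. The share of all genes tested whose groups do not overlap was not counted. The call of Pcdha2 lies close to the threshold: leaving out any 1 of the 4 libraries ended it (adjusted p from 0.358 to 1), with the log2 difference between 1.17 and 1.26 throughout. Pcdha2 was also higher in the libraries labelled Mcph1KO at the other stages, by 0.94 ± 0.15 at P4 (edgeR adjusted p = 0.16), 1.49 ± 0.16 at A6w (0.0234) and 1.67 ± 0.17 at A18w (0.026).

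The genes of the beta cluster were higher together. Of its 22 genes 21 were higher in both pairs and none was lower in both, against 26.2% and 27.5% of all genes tested. The median log2 difference over the beta genes was 0.73, with 0.69 in the first pair and 0.60 in the second, where the median of all genes was -0.01. Their summed level was 114.7 and 144.6 CPM in WT 1 and 2 and 182.4 and 224.1 CPM in Mcph1KO 1 and 2, so both Mcph1KO libraries lay above both WT libraries. No beta gene passed the adjusted test, 14 had an unadjusted p under 0.05 (all higher, against 1.39% of all genes), and 12 did so without the replicate block.

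Within the cluster the differences fell into runs of neighbouring genes. The bounds of the runs were set after the values were seen, so counts within a run are a description. Pcdhb2 had 1.82 and 1.73 CPM in WT 1 and 2 and 6.89 and 7.225 CPM in Mcph1KO 1 and 2, the largest difference among beta genes of over 1 CPM at 1.99 ± 0.29 (edgeR adjusted p = 0.124), and Pcdhb3 followed with 1.22. The next 6 genes, Pcdhb4 to Pcdhb9, stood at 0.16 to 0.29, and none of them had an unadjusted p under 0.05. All of the 10 genes from Pcdhb10 to Pcdhb19 had one, against 2.78% of all genes tested, with log2 differences of 0.71 to 1.22. Pcdhb17, the beta gene with the most counts, had 11.9 and 17.8 CPM in WT and 21.7 and 26.1 in the libraries labelled Mcph1KO, and Pcdhb16 had 5.83 and 6.82 against 13.5 and 16.02. The last 3 genes, Pcdhb20 to Pcdhb22, lay at 0.36 to 0.51. Pcdhb1 was at 0 in both WT libraries and at 0.0295 and 0.365 CPM in Mcph1KO 1 and 2. Beta genes have 1 coding exon each and are similar in sequence, so reads can be shared among neighbours, and the sum over the cluster is less exposed to this than a single gene.

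At the other stages the beta genes had lower medians, and this was not so for every gene. Their median log2 difference was 0.21 at P4, 0.06 at A6w and 0.36 at A18w, with 18, 12 and 19 of 22 genes higher and 0 called at each. The E17.5 difference set against the mean of the other 3 stages was called for 0 of the 22 genes, and 8 had an unadjusted p under 0.05 in that contrast. Pcdhb17 differed by 0.71 at E17.5 and by 0.01, -0.05 and 0.03 at P4, A6w and A18w, while Pcdhb2, with 1.99 at E17.5, differed by 1.15, 0.79 and 1.15 (edgeR adjusted p = 1 for both contrasts). Among Pcdhb4 to Pcdhb9, which stood at no more than 0.29 at E17.5, single genes reached 0.73 at another stage.

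The alpha cluster was split and the gamma cluster leaned lower. Of 14 alpha gene models, 7 were higher and 4 lower in both pairs. With an unadjusted p under 0.05, 5 were higher and 3 lower, against 1.39% and 1.4% of all genes. Beside Pcdha2, Pcdha1 was at 1.96 and 3.15 CPM in WT and 5.63 and 8.25 in the libraries labelled Mcph1KO (log2 difference 1.45 ± 0.24, edgeR adjusted p = 0.21), and Pcdha3 at 15.3 and 16.6 against 26.0 and 28.8. Pcdha6 went the other way, with 14.3 and 14.6 CPM in WT and 3.56 and 4.12 in the libraries labelled Mcph1KO (-1.92 ± 0.34, edgeR adjusted p = 0.312), and so did Pcdha9, with 17.2 and 23.9 against 8.60 and 10.5. These 4 genes were among the alpha genes of largest difference, so the lack of overlap between their groups is a description. The directions of these 4 genes were the same at P4, A6w and A18w. The log2 differences at those stages were 1.05, 1.25 and 1.34 for Pcdha1 and 0.45, 0.86 and 0.57 for Pcdha3. They were -1.55, -2.08 and -1.51 for Pcdha6 and -1.38, -1.48 and -0.79 for Pcdha9. The contrast of E17.5 with the other stages called 0 alpha genes. The summed alpha level was 188.3 and 245 CPM in WT 1 and 2 and 202.2 and 258.9 CPM in Mcph1KO 1 and 2, a log2 difference of 0.10 in the first pair and 0.08 in the second.

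None of 22 gamma genes was higher in both pairs, and 12 were lower in both. Their summed level was 916 and 984 CPM in WT 1 and 2 and 818 and 814 CPM in Mcph1KO 1 and 2, with a median log2 difference of -0.21. Pcdhgb1 had 19.06 and 20.05 CPM in WT and 11.6 and 8.69 in the libraries labelled Mcph1KO (-0.95 ± 0.29, edgeR adjusted p = 1). Pcdhgc3, with the most counts, had 322 and 347 CPM against 284 and 273. Alpha genes share their last exons with each other, and gamma genes theirs, so the assignment of reads to single alpha and gamma genes is uncertain.

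**Figure D3:**
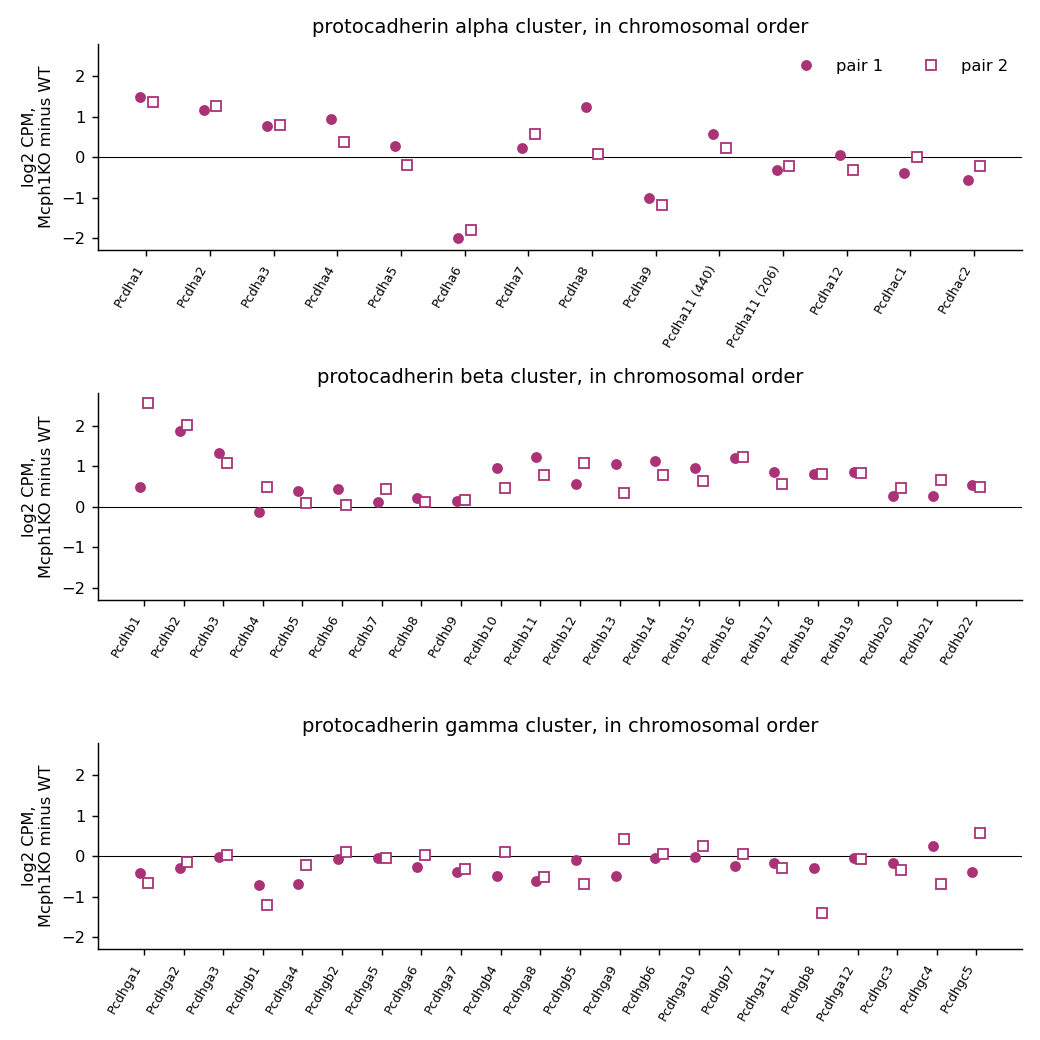
Log2 CPM difference (Mcph1KO minus WT) of each clustered protocadherin gene in the first pair (filled circles) and the second pair (open squares), with genes in chromosomal order on the x axis. The 2 gene models that carry the symbol Pcdha11 are shown apart, and no gene model carried the symbol Pcdha10. The 2 pairs give close values for Pcdha1 to Pcdha3, Pcdha6 and Pcdha9. Pcdhb2, Pcdhb3 and Pcdhb10 to Pcdhb19 mostly stand above Pcdhb4 to Pcdhb9, in runs bounded after the values were seen.

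Genes of motile cilia leaned lower. Motile cilia carry dynein arms, radial spokes and a central pair that make them beat, and in the late embryonic brain they are built by ependymal and choroid plexus cells. The list of 51 such genes was drawn up after their values had been seen, so its counts are a description. In both pairs 40 of the 51 were lower and 1 was higher, with a median log2 difference of -0.98 (-0.96 and -0.77 in the pairs), 25 with an unadjusted p under 0.05, all lower (against 1.4% of all genes), and 0 called. Their summed level was 123.3 and 242.5 CPM in WT 1 and 2 and 84.8 and 164.8 CPM in Mcph1KO 1 and 2, so it was lower within each pair, while Mcph1KO 2 stood above WT 1. The level thus also moved with the replicate number.

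Of the 4 members with the most counts, Foxj1, the transcription factor that switches on the motile cilia program, had 13.3 and 25.9 CPM in WT 1 and 2 and 11.3 and 16.02 CPM in Mcph1KO 1 and 2 (log2 difference -0.46 ± 0.29, edgeR adjusted p = 1). The others lay near 0: Ccdc40, an assembly factor of the axoneme, at 0.02 ± 0.32, Ccdc39, its partner, at -0.17 ± 0.19 and Tppp3 at 0.00 ± 0.18. The following cilia genes were chosen after their values were seen, and they are low-count members with small p-values. Lrrc23, which encodes a radial spoke protein, had 1.99 and 4.60 CPM in WT 1 and 2 and 0.471 and 1.90 CPM in Mcph1KO 1 and 2 (log2 difference -1.62 ± 0.34, edgeR adjusted p = 0.659). Rsph1, another radial spoke gene, had 1.47 and 5.02 against 0.265 and 2.04. Catip had 0.528 and 1.70 CPM in WT and 0.0295 and 0.292 in the libraries labelled Mcph1KO. Most members had few counts, and the 8 of at least 5 CPM had a median log2 difference of -0.22. At P4, A6w and A18w the medians of the list were 0.11, 0.39 and -0.09.

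RFX factors, which act with Foxj1 on cilia genes, bind a pair of half-sites of which GTTGCC is a usual form. In the 250 bases before the start of transcription (RefSeq, GRCm38.p6), GTTGCC, the only motif searched, stood on either strand in 19 of the 41 cilia genes matched by symbol (46.3%), against 3195 of all 27025 genes with such a window (11.8%). Among the 13215 tested genes with such a window the share was 12.4%. A match is a string of letters and not a shown site, and these shares describe the list, not the genotype difference. Of the 9 cilia genes with an unadjusted p under 0.01, 7 have such a window, and 4 of these windows hold the motif. Of the 4 windows, 3 are printed 5′ to 3′ on the strand of the gene, with the match or its reverse complement in capitals. They lie at chr6:124779728-124779977, minus strand (Lrrc23), chr1:74361885-74362134, plus strand (Catip) and chr8:116504765-116505014, plus strand (Dynlrb2, a dynein light chain gene).
Lrrc23: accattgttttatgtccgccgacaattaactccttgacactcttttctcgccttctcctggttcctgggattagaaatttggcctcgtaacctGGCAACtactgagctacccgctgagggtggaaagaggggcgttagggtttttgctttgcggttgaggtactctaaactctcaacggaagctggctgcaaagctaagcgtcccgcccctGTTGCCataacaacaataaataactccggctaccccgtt
Catip: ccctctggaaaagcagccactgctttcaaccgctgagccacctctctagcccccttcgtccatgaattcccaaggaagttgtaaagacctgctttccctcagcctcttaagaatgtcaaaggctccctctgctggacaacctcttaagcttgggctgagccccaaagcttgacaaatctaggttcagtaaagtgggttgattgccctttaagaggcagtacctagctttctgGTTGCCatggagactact
Dynlrb2: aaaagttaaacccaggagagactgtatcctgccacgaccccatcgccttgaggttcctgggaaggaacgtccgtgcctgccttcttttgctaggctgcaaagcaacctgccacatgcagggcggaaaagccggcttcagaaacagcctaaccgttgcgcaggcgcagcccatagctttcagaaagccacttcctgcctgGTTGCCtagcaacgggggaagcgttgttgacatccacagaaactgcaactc
The window of Lrrc23 holds 1 match on each strand and the other windows 1 match each. The window not printed is that of Ccdc153. In the fit Dynlrb2, also chosen after its values were seen, differed by -1.87 ± 0.53 on the log2 scale.

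Markers of the choroid plexus, the epithelium that makes cerebrospinal fluid and borders the cortex in the ventricle, were nearly missing from 1 library. Ttr, the transthyretin gene and the marker with the most counts, had 662 and 899 CPM in WT 1 and 2, 414 in Mcph1KO 2 and 1.24 in Mcph1KO 1. Kcne2, a potassium channel subunit, had 14.3, 14.6, 10.2 and 0.0295 CPM in the same order, and Clic6 had 22.4, 31.7, 18.1 and 1.36. The summed level of the 16 markers was 844 and 1150 CPM in WT 1 and 2, 60.5 in Mcph1KO 1 and 626 in Mcph1KO 2. In both pairs 14 of the 16 were lower and 1 higher, and 0 passed the adjusted test. Their median log2 difference was -1.82 over both pairs, -3.05 without the libraries numbered 2 and -0.47 without those numbered 1. The part of choroid plexus tissue in the lower cilia genes was not tested. In bulk tissue fewer cells of a type and less RNA per cell cannot be told apart.

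Markers of other tissue next to the cortex also varied between libraries. Thalamus and hypothalamus genes summed to 71.1 and 316.2 CPM in WT 1 and 2 and to 95 and 278 CPM in Mcph1KO 1 and 2, so they followed the replicate number, and Tcf7l2, a thalamic transcription factor, went from 7.83 and 9.43 CPM in WT 1 and Mcph1KO 1 to 143 and 93.5 in WT 2 and Mcph1KO 2. Meningeal fibroblast genes summed to 799 and 990 CPM in WT 1 and 2, 836 in Mcph1KO 1 and 1605 in Mcph1KO 2, with 11 of 14 genes higher in both pairs and 2 lower. Hemoglobin and other red blood cell genes summed to 1890 and 1854 CPM in WT, 1093 in Mcph1KO 1 and 1770 in Mcph1KO 2. The cortical identity genes Emx1, Emx2, Neurod6, Tbr1, Bcl11b and Eomes were present in every library, and Mcph1KO 2 had the lowest level of Emx1 (21.7 CPM), Neurod6 (209), Emx2 and Eomes. Tbr1 and Bcl11b went the other way, with 249.8 and 354 CPM in Mcph1KO 2 against 230 and 324 in WT 2.

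**Figure D4:**
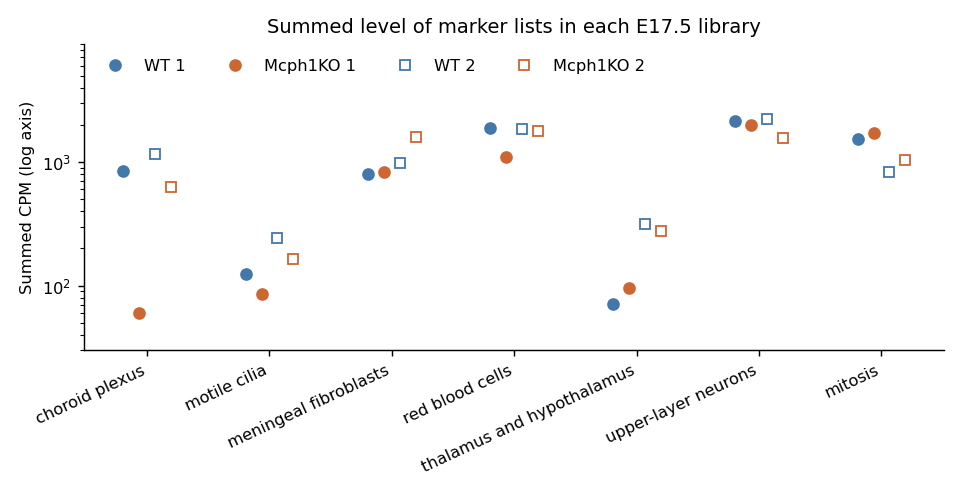
Summed CPM (log axis) of marker lists in each E17.5 library, with circles for libraries numbered 1, squares for those numbered 2, blue for WT and orange for Mcph1KO. Mcph1KO 1 is low in choroid plexus (60.5 CPM) and red blood cell markers, Mcph1KO 2 is high in meningeal markers (1605 CPM), and thalamus and hypothalamus markers follow the replicate number.

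Upper-layer neuron genes leaned lower. Of 12 genes 0 were higher and 9 lower in both pairs, with a median log2 difference of -0.24 (-0.15 and -0.39 in the pairs). An unadjusted p under 0.05 was found for 3, all lower (against 1.4% of all genes). Mef2c, a transcription factor of maturing neurons, had 243 and 300 CPM in WT 1 and 2 against 204 and 171, so its groups did not overlap and Mcph1KO 2 was the lowest (log2 difference -0.53 ± 0.24, edgeR adjusted p = 1). Immature neuron genes were lower in both pairs in 7 of 12 and higher in 0, with a median of -0.15, and Tubb3, a neuronal tubulin, had 1888 and 1952 CPM against 1774 and 1610. Deep-layer genes showed no such lean, with 1 of 12 higher and 2 lower in both pairs. The summed upper-layer level was 2129 and 2228 CPM in WT, 1979 in Mcph1KO 1 and 1572 in Mcph1KO 2, the library with the most meningeal marker RNA, and the part of tissue composition in it was not tested.

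Mitotic genes were slightly higher within each pair. All 27 listed genes were higher in both pairs, with a median log2 difference of 0.27 (0.17 and 0.33 in the pairs), and none had an unadjusted p under 0.05. Top2a, the topoisomerase of dividing cells, had 216 and 124 CPM in WT 1 and 2 and 244 and 159 CPM in Mcph1KO 1 and 2. Mki67, the Ki-67 proliferation marker, had 183 and 102 against 203 and 134. The groups overlapped in both genes, since the libraries numbered 1 stood above those numbered 2 whatever the label. Over the list the number 1 minus number 2 difference had a median of 0.87, over 3 times that of the genotype, and mitotic genes are expressed together in the same cells, so 27 genes are not 27 readings.

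Lists close to the known roles of Mcph1 were also mostly higher within pairs, by small amounts. S phase genes were higher in both pairs in 15 of 22 and lower in 1 (median 0.15), and DNA damage response genes in 16 of 21 and 1 (median 0.16). Of the 8 condensin subunits, 6 were higher in both pairs and 0 lower, with a median of 0.13. Smc2, an ATPase subunit of both condensins, had 68.3 and 40.9 CPM in WT 1 and 2 and 77.3 and 52.6 CPM in Mcph1KO 1 and 2, and Ncaph2, of condensin II, had 122 and 104 against 123 and 102. Primary microcephaly genes were higher in both pairs in 14 of 23 and lower in 3, with a median of 0.06. None of the genes in these 4 lists had an unadjusted p under 0.05. For p53 targets and apoptosis genes the counts were 6 of 20 higher and 5 lower, and 3 of 15 higher and 4 lower, with medians of 0.07 and -0.03.

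Imprinted genes, which are expressed from the copy of 1 parent, were higher in both pairs in 26 of 32 and lower in none. Their median log2 difference was 0.29 (0.14 in the first pair and 0.34 in the second). An unadjusted p under 0.05 was found for 6, all higher (against 1.39% of all genes), and 0 were called. Nnat, a neuronal gene and the member with the most counts, had 1740 and 1617 CPM in WT 1 and 2 and 1855 and 2329 CPM in Mcph1KO 1 and 2. Igf2, a growth factor gene that is also a meningeal marker, had 246.5 and 348 against 282 and 529. In both genes Mcph1KO 2 was the highest library, and it was also the one with the most meningeal marker RNA. The part of meningeal tissue in the level of the imprinted genes was not tested. Peg3, one of the 6, named after its values were seen, had 126 and 128 CPM in WT 1 and 2, 137 in Mcph1KO 1 and 274 in Mcph1KO 2.

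Other groups differed little. Radial glia genes were higher in both pairs in 6 of 16 and lower in 3, with a median log2 difference of 0.07, and intermediate progenitor genes in 3 of 10 and 0, with a median of 0.02. Synapse genes had a median of -0.02, astrocyte genes -0.01 and microglia genes 0.05. Ribosomal protein genes were lower in both pairs in 21 of 77 (median -0.13, with 0.02 and -0.31 in the pairs), so their lean came from the second pair. Nuclear oxidative phosphorylation genes were lower in both pairs in 21 of 45 and higher in 0, with a median of only -0.06. Of the 11 germline genes tested, 4 were higher and 3 lower in both pairs. Sycp1, a structural gene of the synaptonemal complex that joins paired chromosomes in meiosis, was at 0 in both WT libraries. In Mcph1KO 1 and 2 Sycp1 was at 1.15 and 2.88 CPM, at least 40.0-fold higher (edgeR adjusted p = 0.402). Sycp1 was also higher in the libraries labelled Mcph1KO at the other stages. WT and Mcph1KO held 0 and 0 against 3.25 and 2.22 CPM at P4, and 0 and 0 against 0.35 and 0.811 at A6w. At A18w they held 0 and 0.22 against 0.56 and 1.11 CPM.

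**Figure D5:**
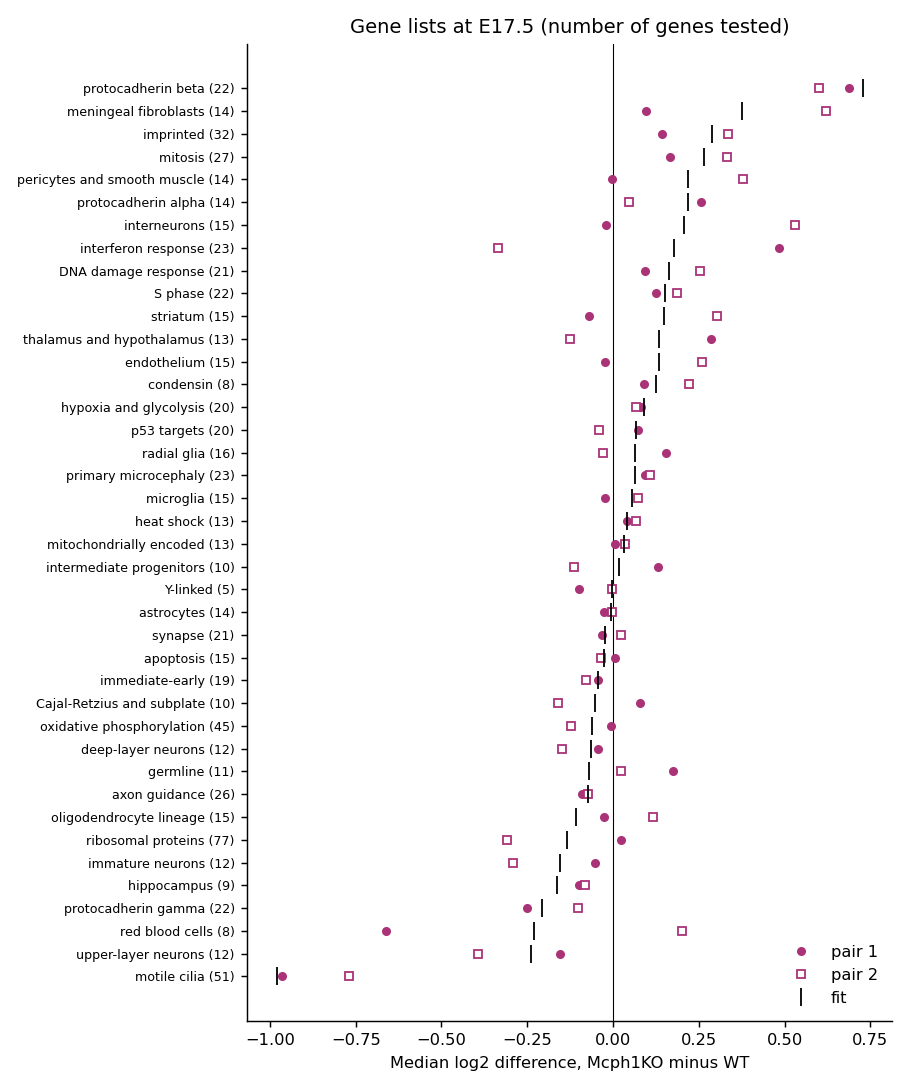
Median log2 difference (Mcph1KO minus WT) of each gene list in the first pair (filled circles), the second pair (open squares) and the fit (bars), with the number of genes tested in brackets; the choroid plexus list (-1.82) is left out for scale. Protocadherin beta genes have the highest median at 0.73 and motile cilia genes the lowest at -0.98, and most lists lie within 0.3 of 0.

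Beyond the calls, 46 genes of at least 5 CPM had an unadjusted p under 0.01 and the same direction in both pairs, 28 higher and 18 lower, and 13 of them were protocadherins. Among the higher genes of the largest difference that are not protocadherins, Acta2, smooth muscle actin, had 4.25 and 1.84 CPM in WT 1 and 2 and 8.98 and 7.01 CPM in Mcph1KO 1 and 2 (log2 difference 1.47 ± 0.31, edgeR adjusted p = 0.659). Nkx2-1, a transcription factor of the ventral forebrain and hypothalamus, had 15.5 and 10.3 against 25.2 and 37.3 (1.27 ± 0.39, edgeR adjusted p = 1). Neither overlapped between the labels. A pair of pseudogenes completed this set, Gm10557 at 7.33 and 2.62 against 12.6 and 10.03 CPM and Gm15501 at 0 in both WT libraries, 0.0589 in Mcph1KO 1 and 25 in Mcph1KO 2.

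Among the lower genes, Col9a3, a collagen gene, had 28.9 and 27.9 CPM in WT 1 and 2 and 12.9 and 19.6 CPM in Mcph1KO 1 and 2 (-0.83 ± 0.20, edgeR adjusted p = 0.937). Dio2, the deiodinase that activates thyroid hormone, had 5.75 and 8.66 against 4.24 and 3.36 (-0.89 ± 0.21, edgeR adjusted p = 0.915). Iqcg, a gene of motile cilia, had 8.68 and 17.2 against 3.48 and 10.4 (-1.01 ± 0.26, edgeR adjusted p = 1). Col9a3 and Dio2 did not overlap between the labels, and Iqcg did. The set also held the non-coding RNA Gm4316, at 17.1 and 16.8 against 5.597 and 10.4 CPM, and Rpl14-ps1, a ribosomal protein pseudogene that was at 11.4 CPM in WT 1, 0.212 in WT 2 and 0 in both Mcph1KO libraries.

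Around Mcph1, within 5 Mb on chromosome 8, 57 genes were tested and 0 called, with 21 higher and 15 lower in both pairs. 6820431F20Rik, a transcribed pseudogene 1.46 Mb from Mcph1 that was chosen after its values were seen, had 336 and 301 CPM in WT 1 and 2 and 539 and 477 CPM in Mcph1KO 1 and 2 (log2 difference 0.67 ± 0.13, edgeR adjusted p = 0.562). Its log2 difference was similar at the other stages, at 0.82 ± 0.13 at P4, 0.62 ± 0.13 at A6w and 0.50 ± 0.13 at A18w.

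Against the mean of the other 3 stages, the E17.5 genotype difference was called for 1 of the 19199 genes (0.00521%), Rps2-ps10, and 624 genes (3.25%) had an unadjusted p under 0.05. For 329 genes the contrast had no usable error (SE above 100 on the log2 scale), nearly all of them genes with a group that held no counts, and 4 of the called genes were among them: Gm9825, Atp6v0c-ps2, Gm10052 and Morf4l1-ps1. The contrast says nothing about those genes. Of the other two, Gm49378 had an edgeR adjusted p of 0.517 and Pcdha2 of 1. The call of Rps2-ps10 was lost without either E17.5 library numbered 1 and with no block or a shared block.

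The replicate number separated the E17.5 libraries more than the genotype label did. The same fit called 270 genes (1.41%) between numbers, 93 (0.484%) higher in number 1 and 177 (0.922%) higher in number 2, against the 7 of the genotype comparison. As examples chosen after their values were seen, Hmgb2, a chromatin protein of dividing cells, had 186 and 217 CPM in WT 1 and Mcph1KO 1 and 65.1 and 66.8 in WT 2 and Mcph1KO 2 (1.60 ± 0.20, edgeR adjusted p = 0.00948). Nefl, the neurofilament light chain of maturing axons, had 53.9 and 47.4 CPM in number 1 and 142 and 112 in number 2 (-1.32 ± 0.14, edgeR adjusted p = 0.00585), and Gja1, the astrocyte connexin, had 59.0 and 66.1 against 132 and 157. Proliferation genes were thus higher in number 1 and genes of later neurons and glia in number 2, in these examples and in the mitosis list, of which 3 genes were called higher in number 1 and 0 in number 2.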

How the data were processed

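Total RNA from cortex homogenate, of which another part went to DNA, was made into libraries with the NEBNext Ultra kit and sequenced on an Illumina HiSeq, per the labels' protocols. Reads were trimmed with Trimmomatic 0.39 and quantified with Salmon 1.4.0 on GRCm38.p6, per the submitters' processing notes. The authors deposited estimated counts per gene, as whole numbers, for 54281 genes in 18 libraries. Symbols came from a GENCODE annotation of GRCm38, which matched 54107 gene IDs, 53544 of them with the same version.

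Counts were fitted in edgeR 4.0.16 (R 4.3.3) over the 16 cortex libraries with TMM factors, 1 mean per group and 1 term per stage for the replicate number, which left 4 residual degrees of freedom. filterByExpr (minimum count 10, minimum total 15) kept 19199 genes. Quasi-likelihood p-values were adjusted by Benjamini and Hochberg, with a call under 0.05. Log2 CPM per pair used a prior count of 2. The script was tested on simulated counts, where it made more false calls than the threshold allows for.

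Gene models were read whole, so exons were not analysed here. The members, gene lists and alternatives were chosen with earlier results of these data known. Named genes were the called genes, Mcph1, the 8 rises and 8 falls of largest difference among uncalled genes with an unadjusted p under 0.01, the same sign in both pairs and at least 5 CPM, and up to 4 abundant members of a list, or any protocadherin or condensin; others are marked. Whether the numbers pair the libraries was checked by the correlation of same-numbered deviations from the group means, which was 0.478 at E17.5, 0.209 at P4, 0.0829 at A6w and 0.295 at A18w. DESeq2 1.42.0, other scaling, filters, blocks and sample sets were tried as alternatives. Some genes are not reported here.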

Additional observations from a re-analysis of the deposited data

Results flagged for a closer look

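Rps2-ps10 was the 1 gene whose genotype difference at E17.5 differed from the mean of the other 3 stages by a test of the difference itself, of 19199 tested (0.00521%), with 624 genes (3.25%) at an unadjusted p under 0.05. For 329 of the 19199 genes, among them 4 of the 7 called at E17.5, the contrast had no usable error, nearly always where a group held no counts, so they could not pass. The E17.5 difference exceeded that mean by 3.68 on the log2 scale (edgeR quasi-likelihood test, adjusted p = 0.011), with genotype differences of 0.18 at P4, 0.11 at A6w and 0.03 at A18w. The level of Rps2-ps10 also moved between A6w libraries of different number, from 5.03 and 6.23 CPM to 48.6 and 47.1. The call was lost without either E17.5 library numbered 1 (smallest adjusted p over all genes 0.0611 and 0.0604), and with no replicate block or a block shared by all stages (1 in both).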

How the results depend on the processing

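The count of genes called between the genotype labels at E17.5 was 7. It was 0 with no replicate block (16 or 4 libraries), 0 with a block shared by all stages, 15 in the 4 E17.5 libraries with the block, 16 with DESeq2 and 176 with no filter on low counts. Leaving out 1 library gave 4 to 9 calls, and other scaling, a minimum of 5 CPM or all 18 libraries gave 6 or 7. The contrast of E17.5 with the other stages called 1 gene, against 10 with DESeq2, 135 with no filter, 0 with no block or a shared one, and 0 to 2 without 1 library. Between numbers 270 genes were called, against 840 with DESeq2, 1699 with no filter and 3460 in the 4 libraries alone. Why the counts moved was not tested. Gm9825, Atp6v0c-ps2 and Rps2-ps10 were called in 11 of 14 settings, all but those with no block or a shared block, and Pcdha2 in 6.

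The Mcph1 difference was -0.0308 without either library numbered 2 and 0.39 without either numbered 1; that of Morf4l1 turned from -0.01 to 0.018 with library totals alone and to 0.0249 without either library numbered 2. Of 41 list medians, 22 kept their sign in all 14 settings, among them protocadherin beta (0.52 to 0.84), motile cilia (-1.05 to -0.22) and choroid plexus (-3.05 to -0.47). With 2 libraries a side leaving out 1 leaves the other of its number without a partner.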

Other observations

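On chromosome 12, between 18514510 and 23784131 (GRCm38), a span chosen after values were seen, 45 genes were tested, most of them non-coding or predicted genes. In both pairs 29 were higher and 6 lower in the libraries labelled Mcph1KO, against 26.2% and 27.5% of all genes tested. An unadjusted p under 0.05 was found for 8, all higher (against 1.39% of all genes), with 0 called. The span was bounded by the outermost of 4 genes picked for their values. Those 4 are among the 8, so the counts are a description. The median log2 difference over the span was 0.51 at E17.5, 0.66 at P4, 0.45 at A6w and 0.45 at A18w. The non-coding RNA 2410018L13Rik had 20.8 and 18.9 CPM in WT 1 and 2 and 33.0 and 29.3 CPM in Mcph1KO 1 and 2 (0.65 ± 0.15, edgeR adjusted p = 0.894), and its groups did not overlap. Many genes of this span are near copies of each other, so reads can be shared among them.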
